A study of Homo sapiens with 9 samples.

Results

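The Hedgehog pathway genes described here are 9 genes listed by symbol: the ligands SHH and IHH, the receptor PTCH1, the signal transducer SMO, the inhibitors HHIP and SUFU, and the transcription factors GLI1, GLI2 and GLI3. They were 9 of the 60623 genes listed in the count table. The set was selected on earlier results of the same data, in which GLI1 was named for its low S239D level, so the S239D values of these genes are given as a description, with intervals and no p-value. RNA was sequenced from 22Rv1 cells, a human prostate carcinoma line, in which PDCD4, an inhibitor of the translation initiation helicase EIF4A, was depleted by a short hairpin RNA in all 3 groups. The depleted cells then received PDCD4 with a serine replaced by aspartate (S239D), with the same serine replaced by alanine (S239A), or unaltered (WT), and each group had 3 libraries. The study asked how phosphorylation of PDCD4 by the kinase PLK1 bears on resistance to enzalutamide, an androgen receptor antagonist. The promoter and the number of clones behind each line are not given in the sources used here, and depleted cells with no PDCD4 put back were not analysed here.

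In the Hedgehog pathway a secreted ligand binds PTCH1 at the cell surface. Unbound PTCH1 holds SMO inactive, and SMO that is released lets GLI proteins leave SUFU, which retains them in the cytoplasm, at the primary cilium. GLI2 and GLI3 are the first responders, while GLI1 is both an activator and a transcriptional target, so its RNA is a common readout of the pathway. PTCH1 and HHIP are targets too and act as negative feedback on the ligand. In the prostate the pathway is known from development, where epithelial SHH signals to the surrounding mesenchyme.

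PTCH1 is the standard example of a direct GLI target, so its promoter is shown as a reference for the pair of GLI1 and PTCH1 values that follow. The consensus GLI site GACCACCCA was searched on both strands, with its reverse complement TGGGTGGTC, in the 250 bases before each gene start of the RefSeq table (GRCh38.p14). It was found in 70 of 35116 promoters, 0.199% of them. Of the 9 genes, 7 had 12 promoters in the table, and 1 promoter held the site. GLI1 and GLI3 had 0 promoters there, so neither was searched for the site. That promoter is the PTCH1 window at chr9:95509267-95509516 on the minus strand, shown with the site in capitals, which reads on the opposite strand and begins 172 bases before the start.
PTCH1: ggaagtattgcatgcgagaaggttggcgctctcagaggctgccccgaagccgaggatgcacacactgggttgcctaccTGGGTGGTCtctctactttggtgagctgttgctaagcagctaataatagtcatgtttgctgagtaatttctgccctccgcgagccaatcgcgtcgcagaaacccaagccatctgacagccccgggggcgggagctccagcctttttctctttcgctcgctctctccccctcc
None of 27 PTCH1 transcripts of GENCODE 29 started within 100 bases of that RefSeq start, and the window lay in an intron of 6 of them. Of the other pathway genes described below, 69 had 120 promoters, and 0 held the site. A match is a string of letters in a window, and no binding was measured.

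The libraries held 5696841 to 9688554 counts, and a floor of 3 counts was 0.307 to 0.527 CPM (counts scaled to library size), which covers counting error only. Separate cultures or lines within a group are not stated in the labels, so each p-value reflects the spread between libraries, possibly a technical one. PDCD4, the targeted gene, had 16.8 to 17.1 CPM in S239D, 19.0 to 25.0 CPM in S239A and 20.4 to 24.9 CPM in WT. Its log2 fold change was -0.44 (SE 0.13, adjusted p = 0.0164) for S239D against WT, and -0.040 (SE 0.13, adjusted p = 0.953) for S239A against WT. Whether reads of the introduced copy were counted is not given in the sources used here. Markers of prostate epithelium, 9 of 9 detected, summed to 2739 to 3077 CPM in S239D, 4573 to 5089 CPM in S239A and 4235 to 4344 CPM in WT. Among 9 fibroblast markers, FAP was at 0 in every library, and the sum was 53.7 to 63.9 CPM in S239D, 77.2 to 80.4 CPM in S239A and 69.7 to 82.4 CPM in WT. The 6 immune markers (CD3E at 0) summed to at most 6.05 CPM and the 4 endothelial markers (CDH5 at 0) to at most 0.857 CPM in any library. Mitochondrial transcripts took 5.21 ± 0.70% of counts in S239D, 3.90 ± 1.29% in S239A and 2.95 ± 0.11% in WT (SD, n = 3 each), and replicate 2 had the highest share within S239D and within S239A. The part of these differences in the values below was not tested.

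GLI1 was the gene of the set whose level stood apart. It was 11.6-fold lower in S239D than in WT cells and 13.4-fold lower than in S239A cells, while PTCH1 and SUFU differed by at most 0.17 on the log2 scale between any 2 groups. SHH, GLI2 and GLI3 had wide intervals, and SMO, IHH and HHIP had too few counts to pass the filter on low counts. In RNA from bulk cells, fewer cells with a transcript and less transcript per cell cannot be told apart.

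**Figure D1:**
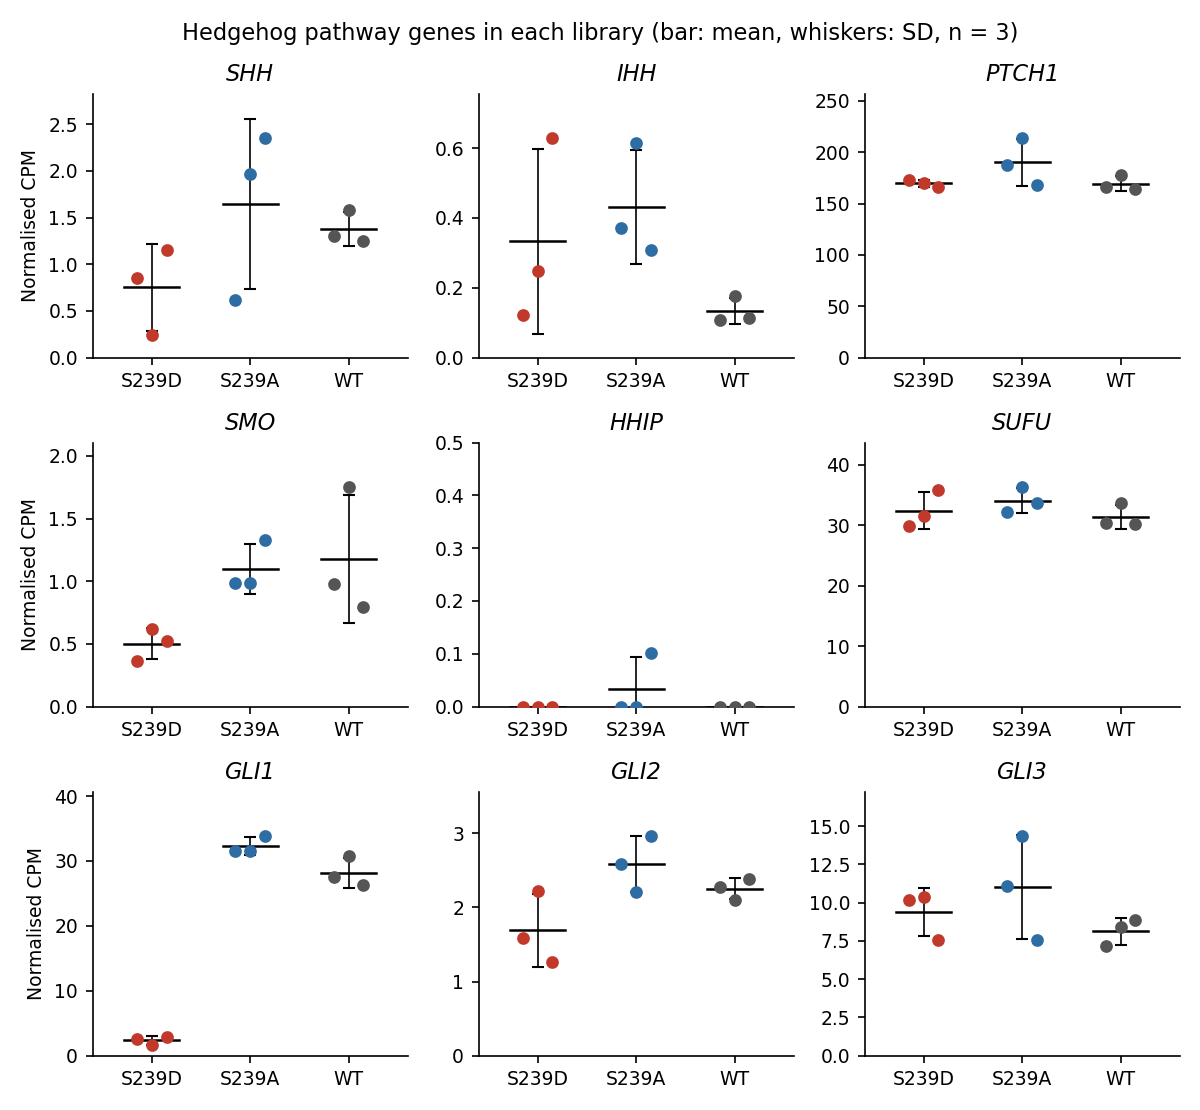
Normalised CPM (vertical axes, each from 0) of the 9 Hedgehog pathway genes in each S239D, S239A and WT library (points), with the mean (bar) and SD (whiskers, n = 3). The GLI1 points of S239D lie between 1.60 and 2.94 CPM, below all S239A and WT points, and the PTCH1 points of the 3 groups overlap.

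Both ligands were near the limit of detection. SHH had 7, 2 and 11 counts in the S239D libraries, 5, 16 and 23 counts in S239A and 12, 9 and 11 counts in WT. In CPM this was 0.86, 0.25 and 1.15 in S239D, 0.62, 1.97 and 2.36 in S239A and 1.30, 1.58 and 1.25 in WT. The S239D values lay below all WT values and overlapped those of S239A, which spread the most. The log2 fold change of SHH was -0.81 (SE 0.57, 95% interval -2.02 to 0.40) for S239D against WT and -1.10 (SE 0.54, -2.26 to 0.052) for S239D against S239A. IHH, the other ligand of the set, had 1, 2 and 6 counts in S239D, 3, 5 and 3 counts in S239A and 1 count in each WT library. No fold change of IHH is given, since it did not pass the filter on low counts.

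PTCH1 was the most abundant RNA of the set. It had 1414, 1376 and 1580 counts in S239D, 1518, 1743 and 1644 counts in S239A and 1530, 1014 and 1452 counts in WT. Scaled for depth, PTCH1 had 173, 170 and 166 CPM in S239D, 187, 214 and 168 CPM in S239A and 166, 178 and 165 CPM in WT. The S239D and WT ranges overlapped, and S239A replicate 2 was the highest library. The log2 fold change of PTCH1 was 0.0020 (SE 0.091) for S239D against WT, with a 95% interval from 0.875-fold to 1.15-fold. Against S239A the S239D value was -0.16 (SE 0.090, 95% interval -0.36 to 0.030), and it was -0.067 without S239A replicate 2.

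SMO, the transducer that PTCH1 holds in check, had 3, 5 and 5 counts in S239D, 8, 8 and 13 counts in S239A and 9, 10 and 7 counts in WT. The 3 S239D libraries were below the other 6, at counts close to the floor of 3, but S239D replicate 2 had the highest SMO TPM (0.68). HHIP, a decoy that binds ligand at the cell surface, had 0 counts in S239D, 1 count in S239A replicate 3 and 0 counts in WT. SUFU, by contrast, was readily measured, with 29.9, 31.6 and 35.8 CPM in S239D, 32.2, 36.4 and 33.6 CPM in S239A and 30.3, 33.7 and 30.1 CPM in WT. All 3 groups overlapped in SUFU, and its log2 fold change was 0.053 (SE 0.11, 95% interval -0.18 to 0.29) for S239D against WT and -0.069 (SE 0.11, -0.30 to 0.16) against S239A.

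GLI1 had 21, 13 and 28 counts in S239D, 255, 257 and 331 counts in S239A and 254, 175 and 232 counts in WT. After scaling these were 2.57, 1.60 and 2.94 CPM in S239D, 31.5, 31.6 and 33.9 CPM in S239A and 27.5, 30.7 and 26.3 CPM in WT. Every S239D library was below every S239A and WT library, and the S239A libraries lay just above those of WT without overlap. The log2 fold change of GLI1 was -3.54 (SE 0.18, 95% interval -3.92 to -3.17) for S239D against WT and -3.75 (SE 0.17, -4.12 to -3.37) for S239D against S239A. The fold below WT had a 95% interval from 8.97 to 15.1. Of 16213 genes tested, 28 had a lower log2 fold change than GLI1 in S239D against WT and 35 in S239D against S239A.

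The other GLI factors were lower in count and spread more. GLI2 had 13, 18 and 12 counts in S239D, 21, 18 and 29 counts in S239A and 21, 12 and 21 counts in WT. Its log2 fold change was -0.43 (SE 0.33, 95% interval -1.14 to 0.28) for S239D against WT and -0.63 (SE 0.32, -1.31 to 0.057) against S239A. The S239D and WT values of GLI2 overlapped in CPM through S239D replicate 2, and on the log2(TPM + 1) scale the difference from WT had the other sign, 0.016. GLI3, which is processed mainly to a repressor, had 10.2, 10.4 and 7.56 CPM in S239D, 11.1, 14.4 and 7.58 CPM in S239A and 7.15, 8.43 and 8.84 CPM in WT. The groups overlapped, and the log2 fold change of GLI3 was 0.20 (SE 0.23, 95% interval -0.29 to 0.69) for S239D against WT and -0.23 (SE 0.22, -0.70 to 0.24) against S239A. The GLI3 difference from WT was -0.16 on the log2(TPM + 1) scale, and the difference from S239A was 0.0085 without S239A replicate 2.

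**Figure D2:**
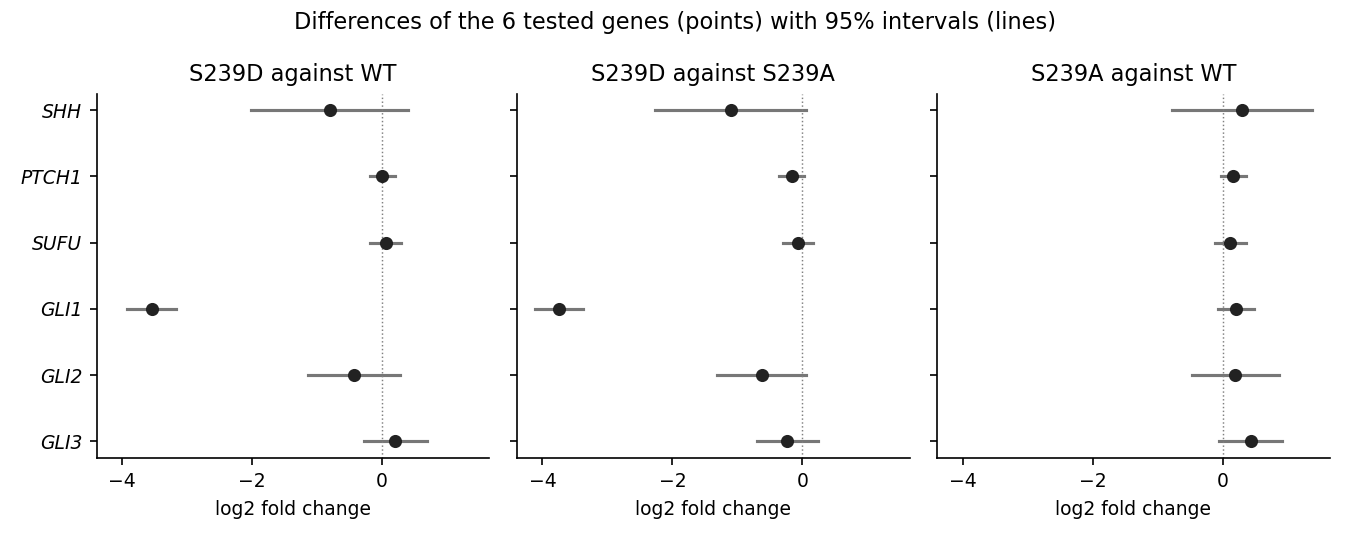
Log2 fold changes (horizontal axis, points) with 95% intervals (lines) of the 6 genes that passed the filter on low counts, for S239D against WT, S239D against S239A and S239A against WT. GLI1 lies at -3.54 and -3.75 in the comparisons of S239D, and the intervals of the other 5 genes include 0 in each panel.

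Called means a Benjamini-Hochberg adjusted p below 0.05 in edgeR's quasi-likelihood test over all genes. For S239D against WT, 1 of the 6 tested genes of the set was called (GLI1), where 41.4% of all tested genes were called. The libraries of the groups did not overlap for 2 of the 6 (GLI1 and SHH), and for 53.9% of all genes. For S239D against S239A, 1 of the 6 was called and 1 did not overlap, GLI1 both times, where 43.6% of all genes were called and 49.8% did not overlap. Nothing is read from these counts, since the S239D level of GLI1 chose the set. The median log2 fold change of the 6 genes was -0.21 for S239D against WT and -0.43 for S239D against S239A. Over all genes tested it was 0.00075 and 0.0099. The medians of the 6 use the same S239D values that chose the set, so no fall of the set is read from them. Each tested gene other than GLI1 had an interval that spanned no change in these comparisons. In S239D against S239A the count of the set was 2 without S239A replicate 1 (GLI1 and SHH) and 2 without S239A replicate 3 (GLI1 and PTCH1). The filter changes when a library is left out, and 7 genes of the set were tested without S239A replicate 1. The 43.6% of all genes belongs to the fit of all 9 libraries, so nothing is read from these counts either.

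The comparison of S239A with WT did not use the S239D libraries in its contrast, but it shares the WT libraries with the comparison on which the set was selected. None of the 6 tested genes was called, and 0 had an unadjusted p below 0.05, beside 9.76% of all genes. DESeq2 and limma on TPM also called 0 of them, and 1 gene, or 0.00617% of all genes, was called by edgeR. That count over all genes was 69 with DESeq2, 142 with no filter, 8 without S239D replicate 2, 2 without WT replicate 3 and 874 without replicate 2 of both S239D and S239A. GLI1 was 0.20 higher in S239A than in WT on the log2 scale (SE 0.13, 95% interval -0.072 to 0.48, adjusted p = 0.636). GLI1 was the only gene of the 6 whose S239A and WT libraries did not overlap, where 19.5% of all genes did not overlap. PTCH1 differed by 0.17 (SE 0.091, adjusted p = 0.576) and SUFU by 0.12 (SE 0.11, adjusted p = 0.762). The log2 fold change was 0.43 for GLI3 (SE 0.22, 95% interval -0.049 to 0.91, adjusted p = 0.557), and 0.19 without S239A replicate 2. GLI2 differed by 0.20 (SE 0.31, adjusted p = 0.887) and SHH by 0.30 (SE 0.50, adjusted p = 0.900), and the SHH value was -0.070 without S239A replicate 3. The median log2 fold change of the 6 genes was 0.20, beside 0.0017 over all genes tested.

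Levels can be set side by side between genes in TPM, the deposited measure that divides by transcript length. In WT cells PTCH1 led with 39.3 to 43.3 TPM, followed by GLI1 with 11.4 to 18.9 TPM and SUFU with 8.35 to 9.87 TPM, and these ranges did not overlap. GLI3 had 1.61 to 2.95 TPM and GLI2 0.48 to 1.05 TPM in WT. GLI2 overlapped SMO (0.28 to 0.62 TPM), and SMO overlapped SHH (0.37 to 0.47 TPM). IHH had 0.06 to 0.10 TPM and HHIP 0 TPM in WT. S239A cells had the same leading genes, with PTCH1 at 39.85 to 66.75 TPM, GLI1 at 14.4 to 33.1 TPM and SUFU at 9.14 to 10.03 TPM. In S239D cells GLI1 took a lower place, at 1.08 to 1.61 TPM, below SUFU (8.97 to 10.39 TPM) and overlapping GLI3 (1.27 to 2.05 TPM). PTCH1 still led in S239D, at 38.0 to 46.5 TPM.

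GLI1 made up most of the GLI family's RNA in S239A and WT cells, and a smaller share in S239D cells. Its share of the summed GLI1, GLI2 and GLI3 TPM was 28.7%, 33.0% and 46.3% in the S239D libraries, 86.8%, 65.2% and 88.1% in S239A and 83.7%, 87.5% and 84.5% in WT. The low S239A share came from replicate 2, where GLI3 had 6.34 TPM, against 1.95 and 2.71 TPM in the other S239A libraries. In CPM, GLI3 differed less there, with 14.4 in replicate 2 against 11.1 and 7.58. Its CPM per TPM was 2.27 in replicate 2, against 5.70 and 2.80. PTCH1 had 67.3, 106 and 56.4 counts for each GLI1 count in S239D, 5.95, 6.78 and 4.97 in S239A and 6.02, 5.79 and 6.26 in WT. The 3 S239D ratios were far above the other 6, whose ranges overlapped. TPM depends on RSEM's effective length, which differed between libraries, so that GLI1 CPM per TPM ran from 1.02 to 2.38, and from 3.27 to 3.63 for SUFU. It ran from 1.64 to 4.96 for GLI2 and from 2.27 to 5.95 for GLI3, so the GLI shares carry this variation too.

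**Figure D3:**
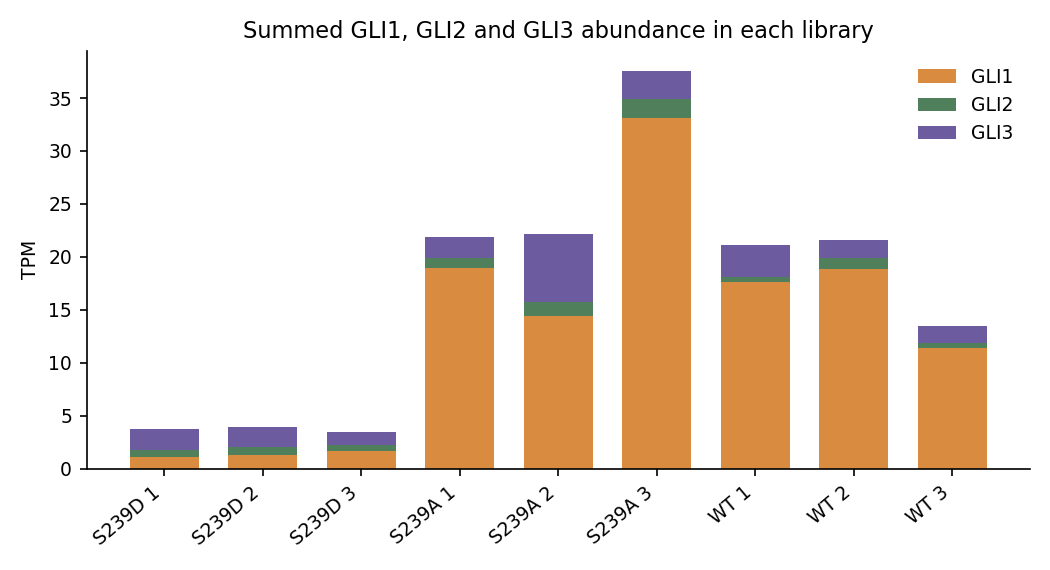
Summed abundance of GLI1, GLI2 and GLI3 (vertical axis, TPM, stacked bars from 0) in each S239D, S239A and WT library. The bars of S239D reach 3.48 to 3.91 TPM, with GLI1 at 1.08 to 1.61 TPM of it, and those of S239A and WT reach 13.5 to 37.6 TPM.

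**Figure D4:**
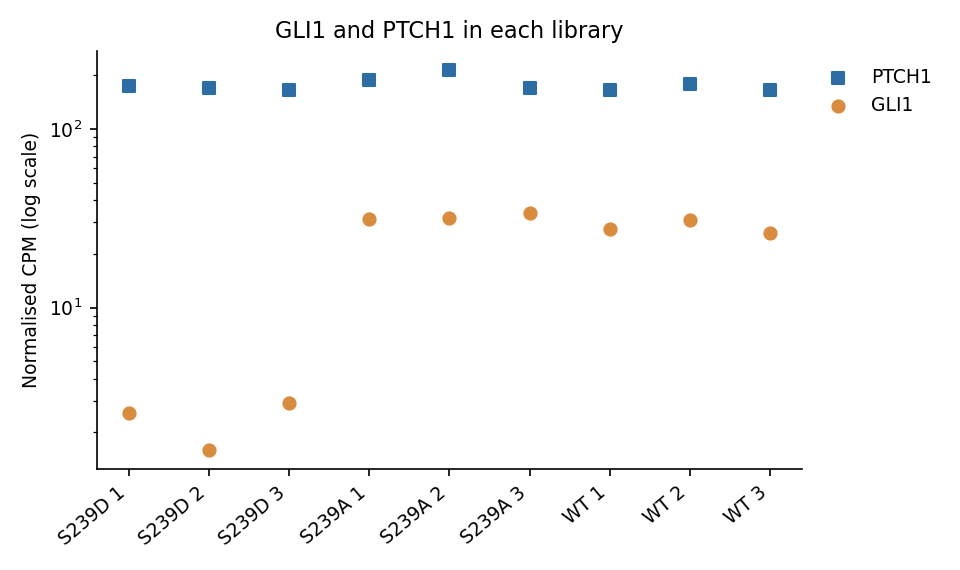
Normalised CPM (vertical axis, log scale) of GLI1 and PTCH1 in each S239D, S239A and WT library (points). GLI1 lies at 1.60 to 2.94 CPM in S239D, below all S239A and WT libraries, and PTCH1 lies between 165 and 214 CPM in all 9 libraries.

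GLI1 lies on chromosome 12 at 57459785 to 57472268 in the coordinates of the count table. It overlaps ENSG00000287200, which runs to 57462818, at its start and ARHGAP9, which begins at 57472264, at its end, both on the other strand. The overlap with ARHGAP9 is thus only the last few bases of GLI1. Strandedness is not given in the sources used here, so reads from the overlapping stretches cannot be assigned with certainty. Over the 9 libraries GLI1 had 1566 counts, ENSG00000287200 had 145 and ARHGAP9 had 130. Of the nearest tested neighbours, INHBE fell in S239D against WT (log2 fold change -1.46, SE 0.50, adjusted p = 0.0309), at a mean of 1.07 CPM. ARHGAP9 fell by 0.94 (SE 0.36, adjusted p = 0.0486). ENSG00000287200 had a log2 fold change of -0.65 (SE 0.36, adjusted p = 0.165) and MARS of 0.19 (SE 0.079, adjusted p = 0.0734), the last at 207 CPM. Against S239A, INHBE fell by 1.35 (SE 0.50, adjusted p = 0.0423), while the log2 fold change was -0.48 for ARHGAP9 (SE 0.37, adjusted p = 0.311). It was -0.29 for ENSG00000287200 (SE 0.37, adjusted p = 0.552) and 0.18 for MARS (SE 0.079, adjusted p = 0.0836). The median log2 fold change of 879 genes on chromosome 12 was -0.086 in S239D against WT.

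The other genes of the pathway were taken by role, 88 in all, of which 75 passed the filter on low counts. In S239D against WT, 17 of them rose and 17 fell, or 45.3% of those tested, near the 41.4% of all genes. In S239D against S239A, 12 rose and 19 fell, or 41.3%, near the 43.6% of all genes. In S239A against WT, 0 were called by edgeR, DESeq2 or limma on TPM, and 5 had an unadjusted p below 0.05, or 6.67% of them beside 9.76% of all genes. The comparisons of S239D share its libraries, so their values are set side by side and not counted as separate evidence.

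**Figure D5:**
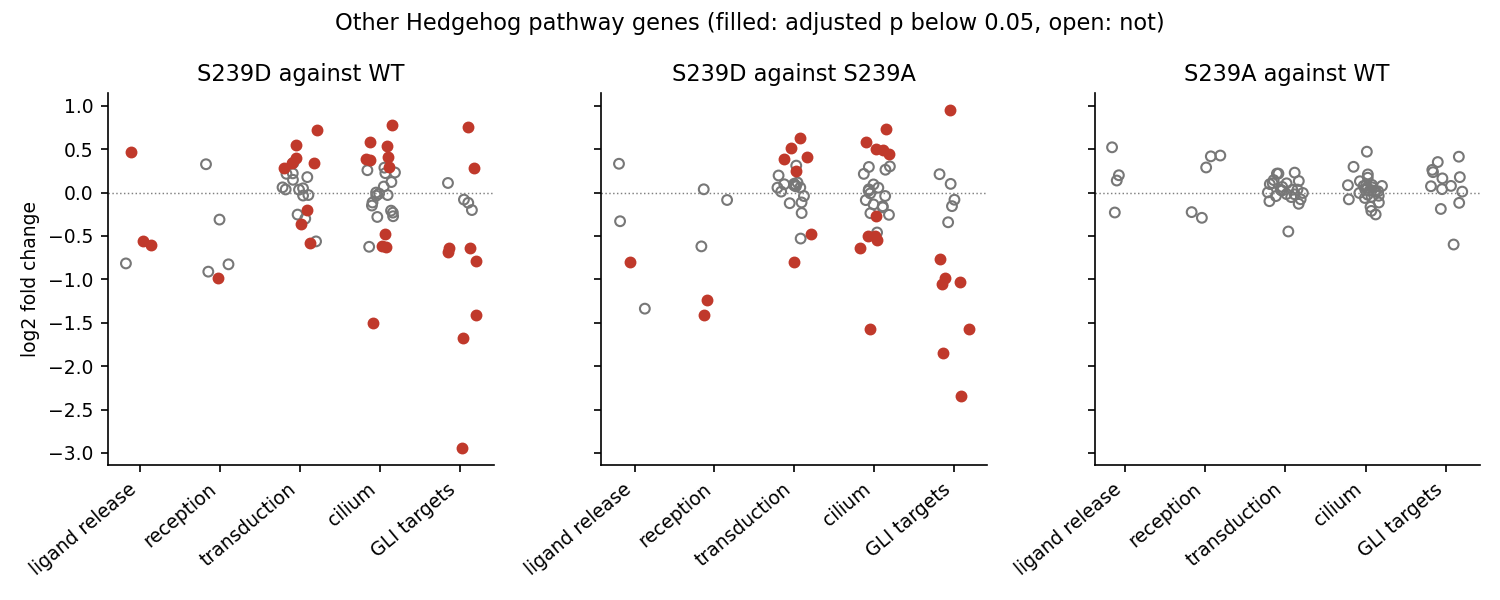
Log2 fold changes (vertical axis) of the other Hedgehog pathway genes reported here by role, for S239D against WT, S239D against S239A and S239A against WT (points, filled where the adjusted p was below 0.05). Filled points lie above and below 0 in both panels of S239D, and there is none in the panel of S239A against WT.

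Among genes of ligand modification and release, 1 rose and 2 fell of 4 tested in S239D against WT, and 0 rose and 1 fell in S239D against S239A. These were 75% and 25% of the 4, beside 41.4% and 43.6% of all genes. HHAT, the acyltransferase that adds palmitate to the ligands, fell by 0.60 (SE 0.22, adjusted p = 0.0430) against WT and by 0.80 (SE 0.22, adjusted p = 0.00846) against S239A. SCUBE2, a secreted carrier of released ligand, fell by 0.56 (SE 0.17, adjusted p = 0.0156), and DISP1, which exports lipid-modified ligand, rose by 0.47 (SE 0.18, adjusted p = 0.0494) against WT. Against S239A the log2 fold change was -0.33 for SCUBE2 (SE 0.17, adjusted p = 0.128) and 0.33 for DISP1 (SE 0.18, adjusted p = 0.144). HHAT kept its call against WT in 6, DISP1 in 7 and SCUBE2 in 13 of 18 alternative analyses. The HHAT call was lost without S239D replicate 1 or 2, S239A replicate 1 or 3, or WT replicate 1 or 2. The DISP1 call was lost without S239D replicate 2 or 3, S239A replicate 1 or 3, or any WT library, and the SCUBE2 call without S239D replicate 2 or 3, or WT replicate 3. Each of these calls was also lost with limma on either TPM scale. Those of HHAT and DISP1 were lost with DESeq2 and without both replicate 2 libraries of the variants. The HHAT call was lost too with no filter and with the compared groups alone. Against S239A the HHAT call was lost with limma on either TPM scale. DHH, the ligand outside the set, had a log2 fold change of -0.82 (SE 0.59, adjusted p = 0.284) against WT and of -1.34 (SE 0.55, adjusted p = 0.0605) against S239A.

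Among genes of ligand reception, CDON, a co-receptor that presents ligand to PTCH1, had 4.29, 4.81 and 4.20 CPM in S239D, 12.8, 9.10 and 13.2 CPM in S239A and 8.89, 7.20 and 9.86 CPM in WT. S239D was below both other groups without overlap, by 0.98 on the log2 scale against WT (log2 fold change -0.98, SE 0.21, adjusted p = 0.00180) and by more against S239A (-1.41, SE 0.20, adjusted p = 7.42e-05). LRP2, an endocytic receptor that takes up SHH, fell against S239A (-1.24, SE 0.40, adjusted p = 0.0204), and that call was lost without S239D replicate 1 or S239A replicate 2. The LRP2 value against WT was -0.83 (SE 0.42, adjusted p = 0.126). LRP2 had only 9, 9 and 12 counts in S239D. In TPM it was not lower there, with a mean of 0.52 in S239D, where replicate 1 had 1.29, and of 0.50 in S239A.

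Of 24 genes that carry the signal between SMO and the GLI proteins, 6 rose and 3 fell in S239D against WT, and 5 rose and 3 fell against S239A. These were 37.5% and 33.3% of the 24, below the 41.4% and 43.6% of all genes. The called kinases that phosphorylate GLI proteins and mark them for processing moved both ways. GSK3B rose to 213 ± 20 CPM in S239D, against 138 ± 21 CPM in S239A and 129.2 ± 5.8 CPM in WT (SD, n = 3 each). Its log2 fold change was 0.72 (SE 0.11, adjusted p = 0.000119) against WT and 0.62 (SE 0.11, adjusted p = 0.000319) against S239A. PRKACB, a catalytic subunit of protein kinase A, fell by 0.58 (SE 0.12, adjusted p = 0.00148) against WT and by 0.80 (SE 0.12, adjusted p = 9.76e-05) against S239A. CSNK1A1, a casein kinase, fell by 0.37 (SE 0.077, adjusted p = 0.00172) against WT and by 0.48 (SE 0.077, adjusted p = 0.000223) against S239A. PRKACA and CSNK1E of the same list, named beside these genes, were not called in either comparison. Against WT the log2 fold change was 0.033 for PRKACA (SE 0.11, adjusted p = 0.826), which averaged 126 CPM in S239D and 123 CPM in WT. For CSNK1E it was -0.25 (SE 0.10, adjusted p = 0.0543). STK36, whose fly counterpart Fused acts in the pathway, rose by 0.55 (SE 0.092, adjusted p = 0.000335) against WT and by 0.52 (SE 0.091, adjusted p = 0.000448) against S239A. GSK3B, PRKACB, CSNK1A1 and STK36 kept both calls in all 18 alternatives.

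Of 28 genes of the primary cilium, where the signal is transduced, 7 rose and 4 fell in S239D against WT, and 5 rose and 6 fell against S239A. That was 39.3% of the 28 each time, near the 41.4% and 43.6% of all genes. FUZ and INTU, partners in a complex needed to build cilia, moved in opposite directions. FUZ had 6.74, 4.56 and 6.30 CPM in S239D, 19.4, 14.5 and 18.7 CPM in S239A and 14.6, 16.2 and 19.2 CPM in WT. Its log2 fold change was -1.50 (SE 0.19, adjusted p = 2.71e-05) against WT and -1.58 (SE 0.18, adjusted p = 1.37e-05) against S239A. INTU had 29.8, 32.4 and 29.1 CPM in S239D, 17.9, 18.2 and 18.7 CPM in S239A and 15.6, 21.9 and 16.3 CPM in WT, a rise of 0.78 (SE 0.13, adjusted p = 0.000387) against WT and of 0.73 (SE 0.13, adjusted p = 0.000490) against S239A. IFT52, of the intraflagellar transport train, fell by 0.62 (SE 0.13, adjusted p = 0.00166) against WT. CEP164, which anchors the basal body, rose by 0.58 (SE 0.12, adjusted p = 0.00178) against WT. IFT81, also of the transport train, rose by 0.50 (SE 0.11, adjusted p = 0.00201) against S239A. Against WT the IFT81 rise was 0.29 (SE 0.11, adjusted p = 0.0453), a call kept in 6 of 18 alternatives. IFT81 averaged 39.2 CPM in S239D, 27.7 CPM in S239A and 32.1 CPM in WT. On TPM with limma, IFT52 against WT and INTU against S239A lost their calls.

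Of 26 genes listed as GLI targets in other tissues, 14 passed the filter on low counts. In S239D against WT 3 of the 14 rose and 7 fell, with a median log2 fold change of -0.42 beside 0.00075 over all genes. In S239D against S239A 2 rose and 7 fell, with a median of -0.55 beside 0.0099. The calls were 71.4% and 64.3% of the 14, beside 41.4% and 43.6% of all genes. Among those that rose against WT were BMI1 and CCND1, the second named because of its value. BMI1, a Polycomb protein, had 69.6, 86.0 and 74.4 CPM in S239D, 42.2, 40.4 and 36.8 CPM in S239A and 44.1, 46.0 and 46.0 CPM in WT. It rose by 0.76 (SE 0.10, adjusted p = 5.77e-05) against WT and by 0.95 (SE 0.10, adjusted p = 6.94e-06) against S239A. CCND1, which encodes cyclin D1, rose by 0.28 (SE 0.085, adjusted p = 0.0153) against WT, and its log2 fold change was 0.21 (SE 0.085, adjusted p = 0.0571) against S239A.

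SOX9, a transcription factor of prostate epithelium, was lower in S239D, with 33.9, 32.9 and 28.8 CPM in S239D, 62.0, 70.8 and 57.0 CPM in S239A and 44.2, 50.2 and 54.3 CPM in WT. It fell by 0.64 (SE 0.12, adjusted p = 0.000734) against WT and by 0.99 (SE 0.12, adjusted p = 1.53e-05) against S239A. CDK6, a cyclin D-dependent kinase, fell by 0.64 (SE 0.15, adjusted p = 0.00296) against WT and by 1.05 (SE 0.14, adjusted p = 5.37e-05) against S239A. BMP4, a secreted growth factor, had 1, 0 and 5 counts in S239D, 12, 8 and 12 counts in S239A and 29, 5 and 12 counts in WT. Its fall against WT (log2 fold change -2.94, SE 0.72, adjusted p = 0.00458) was lost on TPM with limma, where the adjusted p reached 0.0670. Its fall against S239A (-2.34, SE 0.76, adjusted p = 0.0214) was lost with limma on log2(TPM + 1), and without S239D replicate 1 or 2, or S239A replicate 1. BMI1, SOX9 and CDK6 kept both calls in all 18 alternatives.

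GLI1 shared its pattern over the 9 libraries with many genes. Likeness was the Pearson correlation of log2 CPM with 12079 other genes that had a symbol and a mean of at least 5 CPM, a description that rests on the gap between S239D and the other 2 groups. Above 0.99 there were 52 genes and above 0.95 there were 687. The most alike were FSCN1, an actin bundler (0.998), TMPRSS2, an androgen-regulated protease (0.997), LITAF (0.997), MFAP2, a microfibril protein (0.996), and UNC93B1 (0.996). TMPRSS2 averaged 51.7 CPM in S239D, 157 CPM in S239A and 149 CPM in WT, and MFAP2 averaged 2.41 CPM in S239D, 21.8 CPM in S239A and 23.5 CPM in WT. The other genes of the set had no gene above 0.95. PTCH1 was most like DOCK6 (0.948), GLI2 like MICB (0.931), SHH like ILVBL (0.900), GLI3 like ARHGAP32 (0.894) and SUFU like PTER (0.870).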

How the data were processed

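Poly-A selected RNA of 9 libraries was primed with random hexamers and sequenced, per the labels' protocols. The deposited tables hold RSEM's expected count for each gene, not normalized across libraries, and the authors' TPM, scaled within each library. The submitters' processing notes list Trimmomatic 0.39 and RSEM, and the aligner, genome build and annotation are not given in the sources used here. Of the gene identifiers, 96.5% were found in GENCODE 29, of which 99.9% overlapped the same gene on GRCh38. Of the deposited expected counts 3.81% were not whole, and all were rounded.

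Counts were scaled by TMM, filtered with filterByExpr to 16213 genes and tested by the two-sided quasi-likelihood F test of edgeR 4.0.16 (R 4.3.3) with 1 mean per group and 1 estimate of spread from all 9 libraries. Calls were made at a Benjamini-Hochberg adjusted p below 0.05 over all genes. The test was tried on simulated data. CPM are relative to TMM-scaled library sizes.

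The genes of the set and all gene lists were chosen with earlier results of these data known. Named genes were the whole set, up to 4 called genes with the smallest adjusted p per role and comparison, the genes most alike to each gene of the set, and the nearest tested neighbours of GLI1. Some genes that this rule names are not reported here, and counts over the lists include them. Alternatives were RLE scaling, DESeq2 1.42.0, limma 3.58.1 on log2(TPM + 1) and log2(TPM + 0.1) where 3 libraries reached 1 TPM, no filter, a minimum of 1 CPM in 6 libraries, fits to the compared groups only, a replicate block, each library left out, and both replicate 2 libraries of the variants left out. Deviations from the group means of same-numbered S239D and S239A libraries correlated at 0.100, 0.251 and 0.103 across genes. The correlations of same-numbered libraries with WT reached at most 0.091. Libraries of different numbers were not correlated, so these values cannot tell whether the numbers pair. No label states a pairing.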

Additional observations from a re-analysis of the deposited data

How the results depend on the processing

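With the replicate block, GLI1 was at -3.54 for S239D against WT, -3.75 for S239D against S239A and 0.20 for S239A against WT, no gene of the set changed its call, and 6 genes in all were called for S239A against WT, against 1 without the block. The count over all genes for S239A against WT was 69 with DESeq2, 2 and 3 with limma on log2(TPM + 1) and log2(TPM + 0.1), 142 with no filter and 874 without both replicate 2 libraries of the variants. It ran from 1 to 8 when each library was left out, with 8 without S239D replicate 2 and 2 without WT replicate 3. Of the other pathway genes, 2 of 86 tested were called for S239A against WT with no filter (CDK6 among them), beside 142 of 28733 genes in all. Without both replicate 2 libraries it was 4 of 75 (ADCY6, CUL3 and TTBK2 among them), beside 874 of 16519. Limma on log2(TPM + 1) and log2(TPM + 0.1) tested 72 other pathway genes and 17363 genes in all, where the main fit tested 75 and 16213. For S239D against WT it called 21 and 21 of the other pathway genes, and 4351 and 4284 genes in all. For S239D against S239A it called 4697 and 4642 genes in all. On log2(TPM + 1), which compresses low values, GLI1 was at -2.84 for S239D against WT and -3.24 for S239D against S239A. Over all 18 alternatives GLI1 ran from -3.74 to -2.84 and from -3.94 to -3.24 in these comparisons, and from 0.16 to 0.42 for S239A against WT (adjusted p 0.243 to 0.873). From 1 to 2 genes of the set were called for S239D against S239A when each library was left out, counts from which nothing is read. SHH in S239A against WT ran from -0.070 to 0.67 when each library was left out, with the negative value without S239A replicate 3. For the other results that moved the cause was not tested. SMO, IHH and HHIP did not pass the filter of the main fit. With no filter and with DESeq2 all 9 genes of the set were fitted, but at such low counts no fold change of these genes is given.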

Other observations

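Another list of Hedgehog genes, the Hallmark set, holds 33 genes outside the 9 described above, of which 30 were tested. Of these, CDK6 and NKX6-1 also appear among the GLI targets. In S239D against WT 5 of them rose and 12 fell (median log2 fold change -0.29, beside 0.00075 over all genes). In S239D against S239A 3 rose and 13 fell (median -0.26). These were 56.7% and 53.3% of the 30, beside 41.4% and 43.6% of all genes. In S239A against WT the smallest adjusted p was 0.291. Many of its members are known for axon guidance and neural adhesion rather than for transducing the signal. CNTFR, a receptor subunit for ciliary neurotrophic factor, averaged 41.0 ± 6.8 CPM in S239D, 92.0 ± 5.7 CPM in S239A and 85.4 ± 6.1 CPM in WT (SD, n = 3 each). It fell by 1.06 (SE 0.12, adjusted p = 9.97e-06) against WT and by 1.16 (SE 0.12, adjusted p = 3.23e-06) against S239A. ETS2, a transcription factor, fell by 0.54 (SE 0.089, adjusted p = 0.000276) against WT and by 0.80 (SE 0.088, adjusted p = 7.54e-06) against S239A. UNC5C, a netrin receptor, averaged 8.16 ± 1.49 CPM in S239D, 3.59 ± 0.22 CPM in S239A and 3.21 ± 0.59 CPM in WT, and rose by 1.37 (SE 0.23, adjusted p = 0.000302) against WT. ADGRG1, an adhesion receptor, rose by 0.64 (SE 0.10, adjusted p = 0.000262) against WT.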
